A study of Mus musculus with 6 samples.

Results

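A set of chemokine ligand genes (10 of the 55401 genes in the deposited count table) were followed in microglia of the mouse spinal cord: Ccl2, Ccl3, Ccl4, Ccl5, Ccl6, Ccl7, Ccl9, Ccl12, Cxcl2 and Cxcl16. They were taken by gene symbol, matched to the table through Ensembl identifiers, and all 10 were found and passed the filter on low counts, as did 16248 genes in total. The groups were 3 libraries from non-transgenic C57BL/6 mice (NTg, replicates 7, 9 and 11) and 3 libraries from untreated heterozygous double mutants (ATXN2-Q33;TDP-43, replicates 8, 10 and 12). The mutants have a knock-in human ATXN2 allele with the Q33 repeat as well as human TDP-43, which are genes of RNA-binding proteins linked to motor neuron disease. All mice were 7 months old, and 9 animals of each line were used. Cells were drawn from the cords with beads against CD11b, an integrin of myeloid cells, and each library came from a pool of 3 cords. Pooling hides differences between single animals, and the promoter that drives human TDP-43 is not given in the sources used here. CD11b is also carried by monocytes, neutrophils and border macrophages, so the preparations could hold those cells.

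Library totals ran from 12553570 to 22854628 counts, deepest in NTg replicate 11 (22854628) and ATXN2-Q33;TDP-43 replicate 12 (19792021). All 10 microglial markers had counts in all 6 libraries, with summed levels of 11733 to 14913 CPM (counts per 1000000 of the normalized library size) in the NTg libraries and 10532 to 15343 CPM in the mutants. The file header calls the alignments of NTg replicates 7 and 9 combined, and does not do so for the other 4, so a batch marked by that word would hold NTg libraries only. A fit with the combined alignments as a term compares the mutants with NTg replicate 11 alone, and its values are given beside the results it moves.

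Chemokines are small secreted proteins that guide leukocytes along a gradient by binding receptors that couple to G proteins. They are named for the spacing of the first cysteines of the mature protein: adjacent in CC ligands (Ccl), separated by another residue in CXC ligands (Cxcl). In the central nervous system microglia and other myeloid cells are a major source of CC chemokines. Many of these genes are switched on by NF-kappaB and AP-1 after Toll-like receptor or cytokine signals, and their mRNAs are often short-lived because proteins of the tristetraprolin family bind AU-rich elements in the 3′ untranslated region.

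The cysteine motif that divides the members is shown first, since it defines the 2 subfamilies. Each line, for 9 of the members, is a stretch of 30 bases of the GENCODE coding sequence (GRCm38), 5′ to 3′, with the codons of the first cysteine pair in capitals.
Ccl2: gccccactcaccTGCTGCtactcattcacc
Ccl7: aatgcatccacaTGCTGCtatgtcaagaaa
Ccl12: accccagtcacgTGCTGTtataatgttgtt
Ccl4: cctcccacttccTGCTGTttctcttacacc
Ccl5: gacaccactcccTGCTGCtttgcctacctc
Ccl6: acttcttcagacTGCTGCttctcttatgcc
Ccl9: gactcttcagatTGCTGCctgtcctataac
Cxcl2: agtgaactgcgcTGTcaaTGCctgaagacc
Cxcl16: gtcgctggaagtTGTtctTGTgatcgtacc
In the CC members shown the capital codons are adjacent, and in Cxcl2 and Cxcl16 a further codon lies between them. The coding sequences give proteins of 91 residues (Ccl5) to 148 residues (Ccl2) for the CC members, 100 residues for Cxcl2 and 246 residues for Cxcl16, which is made as a transmembrane protein with its chemokine domain on a stalk.

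ATTTA, the short core of AU-rich elements, was counted in the 3′ untranslated region of 1 GENCODE transcript per gene. Of the mouse genes with such a region 62.8% held at least 1 copy, so a copy alone does not mark an mRNA with fast turnover. Cxcl2 held 11 copies, a number reached by 4.84% of the 20702 mouse genes with such a region. Ccl3, Ccl9 and Ccl12 held 5 each, Ccl6 held 4, Ccl4, Ccl7 and Cxcl16 held 2 each, Ccl2 held 1 and Ccl5 held 0, against a median of 1 over those genes. Per kilobase of that region Ccl12 had 29.9 copies, Cxcl2 14.99 and Ccl3 12.2, against a median of 1.17. The 30 bases around the densest stretch of the 3 genes with the most copies per kilobase are shown with each ATTTA in capitals.
Ccl12: ATTTAaacaaacttgcttaaataatATTTA
Cxcl2: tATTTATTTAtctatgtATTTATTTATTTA
Ccl3: gactcttcacttgaaattttATTTAATTTA
In Cxcl2 and Ccl3 most of the copies shown overlap or lie end to end, whereas in Ccl12 they are spread over a short region of 167 bases. These matches describe sequence, and binding was not measured.

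The RefSeq promoter table (GRCm38.p6) held 5 of the 10 members: Ccl3, Ccl6, Ccl9, Ccl12 and Cxcl2. The 250 bases before the start were searched on both strands for the NF-kappaB consensus, for the AP-1 motif TGANTCA and for TATAAA, which 7.25%, 6.75% and 12.37% of 32851 such windows held. Cxcl2 held 2 overlapping NF-kappaB matches, with their first bases at -97 and -96 (-1 being the base before the start). They cover the same stretch of bases and are not separate sites. Ccl9 held 1 NF-kappaB match at -35, 1 AP-1 match at -53 and 3 TATAAA matches, of which 2 overlap. Ccl12 held TATAAA at -31, and none of these motifs was found in the windows of Ccl3 and Ccl6. The windows shown are those of Cxcl2, which holds the overlapping NF-kappaB matches, and of Ccl12, which had the smallest p of the members below. Each is on the strand of the gene with the matches in capitals.
Cxcl2 (GRCm38.p6, chr5:90903649-90903898, + strand): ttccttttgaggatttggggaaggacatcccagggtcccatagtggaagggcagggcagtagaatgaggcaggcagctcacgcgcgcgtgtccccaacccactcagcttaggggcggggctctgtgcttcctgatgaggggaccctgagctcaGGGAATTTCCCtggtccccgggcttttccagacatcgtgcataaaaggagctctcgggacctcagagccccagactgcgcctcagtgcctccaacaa
Ccl12 (GRCm38.p6, chr11:82101595-82101844, + strand): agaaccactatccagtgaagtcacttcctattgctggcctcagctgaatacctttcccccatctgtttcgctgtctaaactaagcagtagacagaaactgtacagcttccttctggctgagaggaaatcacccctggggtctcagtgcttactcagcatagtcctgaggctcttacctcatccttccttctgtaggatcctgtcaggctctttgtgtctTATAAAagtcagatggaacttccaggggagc
The RNA data do not show which of these stretches was bound.

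On mm10, 9 of the 10 genes lie on chromosome 11 and Cxcl2 lies on chromosome 5 (90903871 to 90905938). Ccl2 (82035571 to 82037453), Ccl7 (82045712 to 82047525) and Ccl12 (82101845 to 82103400) form a group in which Ccl2 and Ccl7 are 8258 bases apart. A second group begins 1422377 bases further on with Ccl5 (83525778 to 83530518), Ccl9 (83572919 to 83578636), Ccl6 (83587882 to 83593087), Ccl3 (83647844 to 83649355) and Ccl4 (83662584 to 83664683), in which Ccl9 and Ccl6 are 9245 bases apart and Ccl3 and Ccl4 are 13228 bases apart. Cxcl16 (70453983 to 70459984) lies 11575586 bases before Ccl2. No member had an exon that overlapped another gene on its own strand. The exons of Cxcl16 overlap those of Zmynd15 on the opposite strand, and the counting was stranded. Of 2159 stretches of 50 bases in Cxcl2 transcripts 126 also occur in Cxcl3. Cxcl3 itself measured 0.132 to 0.407 CPM over the libraries. Of 2996 such stretches in Ccl9 transcripts 59 also occur in at least 1 of 250 other genes, and the other 8 members share 0.

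Ccl3 and Ccl4, inflammatory CC ligands, were the most abundant members by a wide margin. Levels between genes are compared in TPM (transcripts per 1000000, from counts over the length of each gene's exons). Ccl3 measured 589.0 ± 126 TPM in NTg and 483.7 ± 50.9 TPM in the mutants (SD, n = 3 each), and Ccl4 measured 493.9 ± 60.3 and 404.0 ± 34.5 TPM. Over the 6 libraries Ccl3 made up 43.9% and Ccl4 36.9% of the summed TPM of the members, and their means were above those of 99.7% of all tested genes. Cxcl16 was the third at 65.05 ± 17.5 TPM over the 6 libraries (SD), followed by Ccl2 (40.0 ± 7.87), Ccl12 (35.4 ± 6.38), Ccl6 (32.0 ± 2.67), Ccl9 (21.3 ± 4.64), Cxcl2 (20.7 ± 1.47), Ccl7 (11.2 ± 2.32) and Ccl5 (6.82 ± 2.04). Even Ccl5, the lowest member, had a mean above that of 77.2% of tested genes.

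Neighbours in the order were separated in 3 places. The ranges over the 6 libraries did not overlap between Ccl4 and Cxcl16, between Ccl6 and Ccl9 or between Cxcl2 and Ccl7. The gap between Ccl6 and Ccl9 does not divide the whole order. Ccl12, placed above Ccl6, ranged from 24.9 to 44.2 TPM and overlapped Ccl9 at 15.7 to 26.5 TPM. All other neighbours in the order overlapped: Ccl3 stood above Ccl4 and Ccl7 above Ccl5 within each of the 6 libraries, Cxcl16 above Ccl2 and Ccl12 above Ccl6 in 5 of 6, Ccl2 above Ccl12 in 4 of 6, and Ccl9 above Cxcl2 in 3 of 6. On CPM, which does not correct for length, the long genes Ccl9 (3045 bases) and Ccl6 (1795 bases) moved up to places 4 and 5, Cxcl2 moved to place 7 and the short Ccl12 (537 bases) moved down to place 8.

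**Figure D1:**
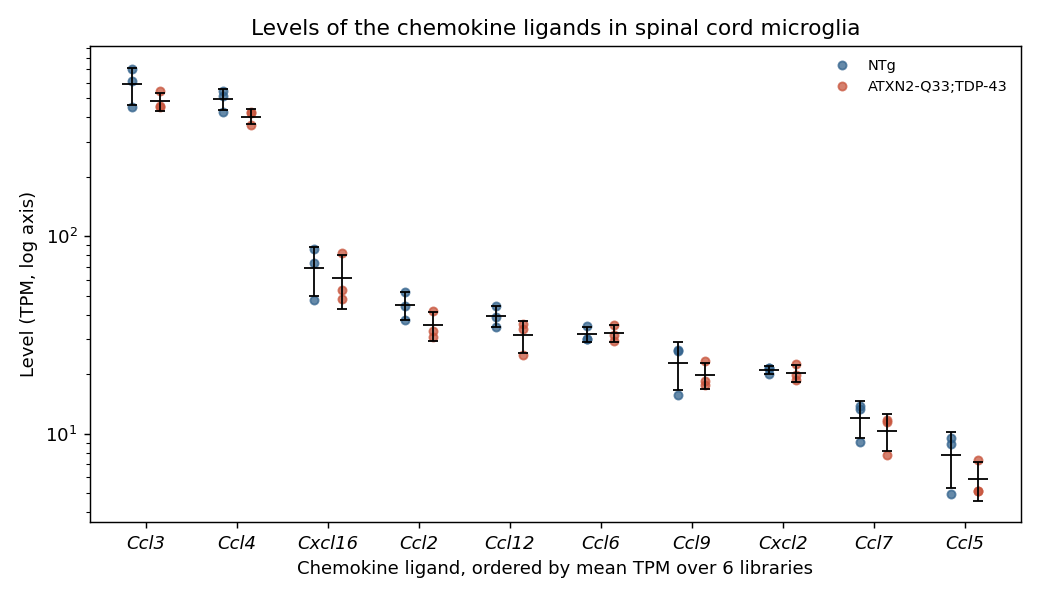
Level in TPM on a log axis for each of the 10 ligands, ordered by their mean over the 6 libraries. Points are single libraries of NTg (blue) and ATXN2-Q33;TDP-43 (red) microglia, and bars give the mean and SD of 3 libraries; Ccl3 and Ccl4 stand above all others, and the points of the genotypes overlap for each ligand.

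None of the 10 chemokine ligands differed between the genotypes past the test in the fit without covariates, and 9 of 10 had a negative fold change. With edgeR's quasi-likelihood test and p-values adjusted by Benjamini and Hochberg's method over all tested genes, 0 members passed the threshold of 0.05, where 0 of the 16248 genes (0%) did, and the adjusted p of each member was 0.9996. At an unadjusted p under 0.05 there were 3 members (Ccl3, Ccl4 and Ccl12), all lower in the mutants, against 368 genes (2.26%) in either direction and 140 genes (0.862%) lower in the mutants. Over all tested genes 48% had a negative fold change. On the same genes DESeq2 called 7 (0.0431%) and limma voom 0. On all genes with a count, a set of which 29608 were tested, DESeq2 called 6 (0.0203%), as edgeR did without its filter. No member was among these calls, and each of these fits had 3 members at an unadjusted p under 0.05. Over all genes 398 reached that p with DESeq2 on the same genes and 291 with limma voom. On all genes with a count 505 did with DESeq2 and 831 with edgeR. A further fit, chosen after seeing the data, added a block term that joins each NTg library to the mutant library with the next code (7 with 8, 9 with 10, 11 with 12), although the labels do not say that they pair. It called 71 genes (0.437%), of which Ccl2 was 1 and no other member was (edgeR adjusted p = 0.0299 for Ccl2). The members' median log2 fold change was -0.24, beside 0.01 for all tested genes. With the combined alignments as a term 7 of 10 members were negative, their median was -0.12 and 0 had an unadjusted p under 0.05. The genes were proposed with earlier results of these data in view and share libraries and regulators, so their counts are a description and not independent evidence of a direction. In bulk libraries fewer cells of a type and less RNA per cell cannot be told apart.

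**Figure D2:**
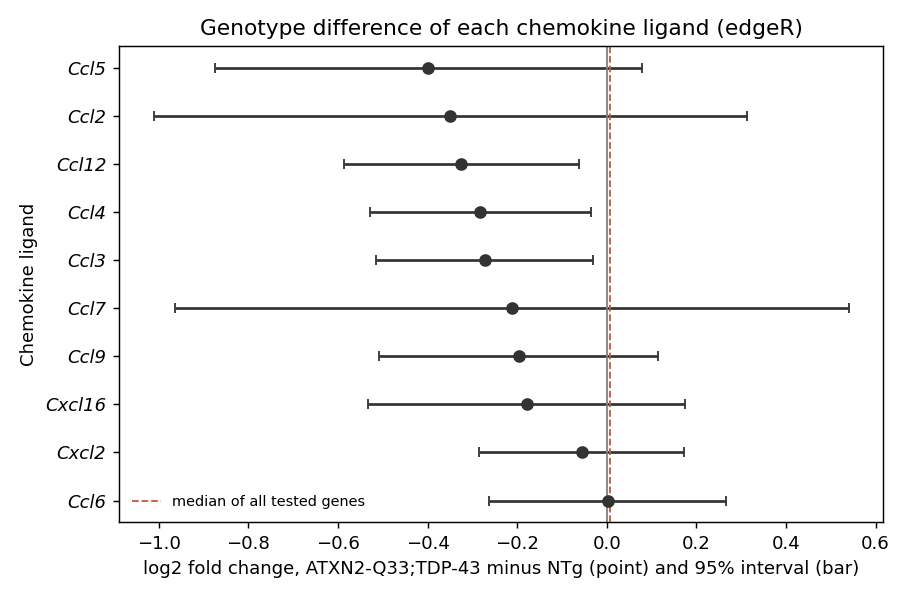
Log2 fold change of each ligand, ATXN2-Q33;TDP-43 minus NTg, from the edgeR fit (points) with its 95% interval (bars); the dashed line is the median of all tested genes. The intervals of Ccl3, Ccl4 and Ccl12 lie below 0 before adjustment, those of the other 7 include 0, and Ccl2 and Ccl7 have the widest.

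The first group are the ligands of Ccr2, which draw monocytes out of the blood: Ccl2, Ccl7 and Ccl12. Ccl12 (ENSMUSG00000035352) was at 35.8, 35.8 and 35.9 CPM in the NTg libraries (replicates 7, 9 and 11, the order used throughout) as against 25.7, 27.2 and 32.8 CPM in the double mutants (replicates 8, 10 and 12). The 3 NTg values were nearly equal and every mutant value lay below them. Its means were 35.8 ± 0.106 and 28.6 ± 3.71 CPM (SD, n = 3 each). This gave a log2 fold change of -0.32 (SE 0.12, with a 95% interval from -0.59 to -0.06) with an unadjusted edgeR p of 0.021. The exact two-sided permutation p was 0.1, the smallest that 3 against 3 libraries allow. With the combined alignments as a term the log2 fold change was -0.33 (SE 0.17). The unusually small spread of the NTg libraries (a coefficient of variation of 0.297%) rests on 444, 543 and 792 counts. Counts of that size are expected to vary more by sampling alone, so the spread does not measure the precision of the NTg level.

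Ccl2 (ENSMUSG00000035385), the best known monocyte attractant of the family, was at 86.1, 64.7 and 114.5 CPM in the NTg libraries as against 72.5, 49.7 and 86.1 CPM in the double mutants. The groups overlapped, and the highest library exceeded the lowest 2.30 times. Its log2 fold change was -0.35 (SE 0.27, with a 95% interval from -1.01 to 0.31, exact two-sided permutation p = 0.5). Without NTg replicate 11 it was -0.11, with neighbouring sample codes as a block -0.35 (SE 0.07), and with the combined alignments as a term -0.72 (SE 0.31). Ccl7 (ENSMUSG00000035373), which draws monocytes through the same receptor, was at 18.1, 11.0015 and 21.2 CPM in the NTg libraries as against 17.7, 8.89 and 16.98 CPM in the double mutants. Here too the groups overlapped, and the highest library exceeded the lowest 2.39 times. The log2 fold change of Ccl7 was -0.21 (SE 0.32, with a 95% interval from -0.96 to 0.54, exact two-sided permutation p = 0.5), and the combined term moved it to -0.55 (SE 0.43). Its sign rested on single libraries: it was 0.04 without ATXN2-Q33;TDP-43 replicate 10 and 0.0054 without NTg replicate 11.

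The second group, Ccl3, Ccl4 and Ccl5, are inflammatory ligands that attract monocytes and T cells. Ccl3 (ENSMUSG00000000982) was at 799.8, 810.0 and 669.1 CPM in the NTg libraries as against 673.7, 589.5 and 623.2 CPM in the double mutants. NTg replicate 11 lay just under mutant replicate 8, so the groups overlapped, while the other NTg values lay above all mutant values. The means were 759.6 ± 78.6 and 628.8 ± 42.4 CPM (SD, n = 3 each). This gave a log2 fold change of -0.27 (SE 0.11, with a 95% interval from -0.52 to -0.03) with an unadjusted edgeR p of 0.0315. The exact two-sided permutation p was 0.2. With the combined alignments as a term the log2 fold change of Ccl3 was -0.09 (SE 0.13).

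Ccl4 (ENSMUSG00000018930), whose gene lies beside Ccl3, was at 579.1, 538.3 and 542.0 CPM in the NTg libraries as against 462.6, 393.4 and 508.6 CPM in the double mutants. Every mutant library lay below every NTg library on CPM. The means were 553.2 ± 22.6 and 454.9 ± 58.0 CPM (SD, n = 3 each). This gave a log2 fold change of -0.28 (SE 0.11, with a 95% interval from -0.53 to -0.03) with an unadjusted edgeR p of 0.0298. The exact two-sided permutation p was 0.1, the smallest possible. Its log2 fold change was -0.25 (SE 0.16) with the combined term and -0.19 without ATXN2-Q33;TDP-43 replicate 10.

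Ccl4 and Ccl12 were the 2 members whose groups did not overlap with the mutants lower, against 582 of all tested genes (3.58%), and no member had the mutants higher throughout. On TPM, which uses no normalization factor and divides by length, 0 members were without overlap: mutant replicate 12 had 427.6 TPM of Ccl4 against 426.0 TPM in NTg replicate 11, and mutant replicate 10 had 35.7 TPM of Ccl12 against 34.7 TPM in NTg replicate 11.

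Ccl5 (ENSMUSG00000035042), a product of T cells, natural killer cells and activated myeloid cells, was at 15.5, 12.8 and 9.17 CPM in the NTg libraries as against 9.50, 10.04 and 8.83 CPM in the double mutants. It had the most negative fold change of the members, yet the NTg libraries spread widely and the lowest of them overlapped the mutants. The log2 fold change was -0.40 (SE 0.21, with a 95% interval from -0.88 to 0.08, exact two-sided permutation p = 0.3). It was -0.21 without NTg replicate 7, -0.58 without NTg replicate 11, and 0.04 (SE 0.24) with the combined alignments as a term. Markers of T and natural killer cells summed to 4.67 to 7.77 CPM in the NTg libraries and 4.99 to 10.2 CPM in the mutants, with 5 of 13 markers present in all 6 libraries. Their part in the Ccl5 values was not tested.

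The third group, Ccl6 and Ccl9, are rodent ligands of Ccr1 made constitutively by myeloid cells. Ccl6 (ENSMUSG00000018927) was at 107.4, 81.7 and 104.9 CPM in the NTg libraries as against 101.5, 90.6 and 102.2 CPM in the double mutants. Its groups overlapped fully, and the mutant values lay within the NTg range. The log2 fold change was 0.0017 (SE 0.12), and the 95% interval of -0.26 to 0.27 includes differences in either direction. With the combined alignments as a term it was -0.10 (SE 0.17). Ccl9 (ENSMUSG00000019122) was at 136.7, 121.5 and 92.5 CPM in the NTg libraries as against 108.5, 100.5 and 96.9 CPM in the double mutants. NTg replicates 7 and 9 stood above all mutants and NTg replicate 11 below them all. The log2 fold change of Ccl9 was -0.20 (SE 0.14, with a 95% interval from -0.51 to 0.12, exact two-sided permutation p = 0.4), it was -0.07 without NTg replicate 7, and with the combined term it was 0.14 (SE 0.13).

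The last group are the CXC members. Cxcl2 (ENSMUSG00000058427), a neutrophil attractant that acts through Cxcr2 and is induced within hours of inflammatory signals, was at 76.0, 67.3 and 79.5 CPM in the NTg libraries as against 78.4, 66.4 and 69.6 CPM in the double mutants. The groups overlapped, and Cxcl2 was the steadiest member, with the highest library exceeding the lowest 1.20 times. Its log2 fold change was -0.06 (SE 0.10, with a 95% interval from -0.28 to 0.17, exact two-sided permutation p = 0.7). With the combined alignments as a term it was -0.15 (SE 0.14). Cxcl2 was also the member with the most ATTTA copies, and whether these bear on its range was not tested.

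Cxcl16 (ENSMUSG00000018920), which holds its receptor-binding domain at the cell surface until it is shed by Adam10 and binds Cxcr6, was at 377.5, 390.1 and 277.9 CPM in the NTg libraries as against 308.8, 353.9 and 260.9 CPM in the double mutants. The groups overlapped, and the lowest value of each group came from its deepest library. The log2 fold change was -0.18 (SE 0.16, with a 95% interval from -0.53 to 0.18, exact two-sided permutation p = 0.5), and it was 0.15 (SE 0.17) with the combined alignments as a term.

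**Figure D3:**
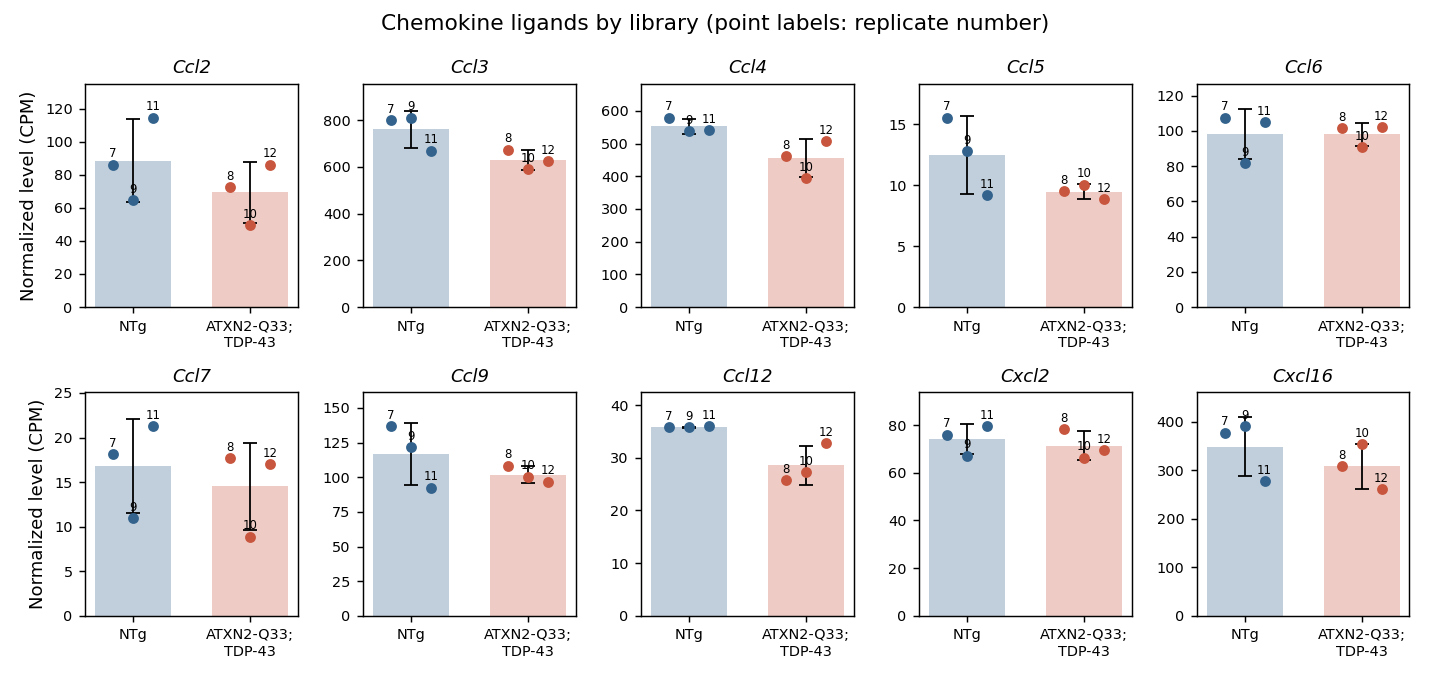
Normalized level in CPM of each ligand, on linear axes from 0. Points are single libraries labelled with their replicate number, bars the mean and error bars the SD of 3 libraries; only Ccl4 and Ccl12 have all mutant points below all NTg points.

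The members did not vary together as a single block over the libraries. Each member's log2 CPM was set against its own mean of the 6 libraries. NTg replicate 7 lay above the mean for 10 of 10 members (median 0.21), whereas ATXN2-Q33;TDP-43 replicate 10 did so for 1 of 10 (median -0.18), the exception being Cxcl16, and held the lowest value of 5 members. The highest value of a member was found in NTg replicate 7 or 11 for 4 members each and in NTg replicate 9 for the other 2. These counts were not made over all tested genes, so they are not read as a genotype difference.

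Some patterns over libraries crossed the genotypes. Over all genes the most alike of the 15 pairs of libraries were NTg replicate 11 with mutant replicate 12, NTg 7 with mutant 8 and NTg 9 with mutant 10 (chi-square per degree of freedom 6.56, 9.46 and 11.7). Ccl2, Ccl6, Ccl7 and Cxcl2 had their 2 lowest values in NTg replicate 9 and ATXN2-Q33;TDP-43 replicate 10. Those libraries also had the 2 lowest summed levels of the 10 microglial markers (11733 and 10532 CPM) and the 2 highest of the 8 oligodendrocyte markers (1607 and 1068 CPM, against 164.5 to 439.7 CPM in the other 4). The 8 endothelial markers were likewise highest there (366.3 and 380.1 CPM, against 109.0 to 195.0 CPM). Ccl5, Ccl9 and Cxcl16 had their 2 lowest values in NTg replicate 11 and ATXN2-Q33;TDP-43 replicate 12, the deepest libraries. The part of cell content or depth in these patterns was not tested.

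**Figure D4:**
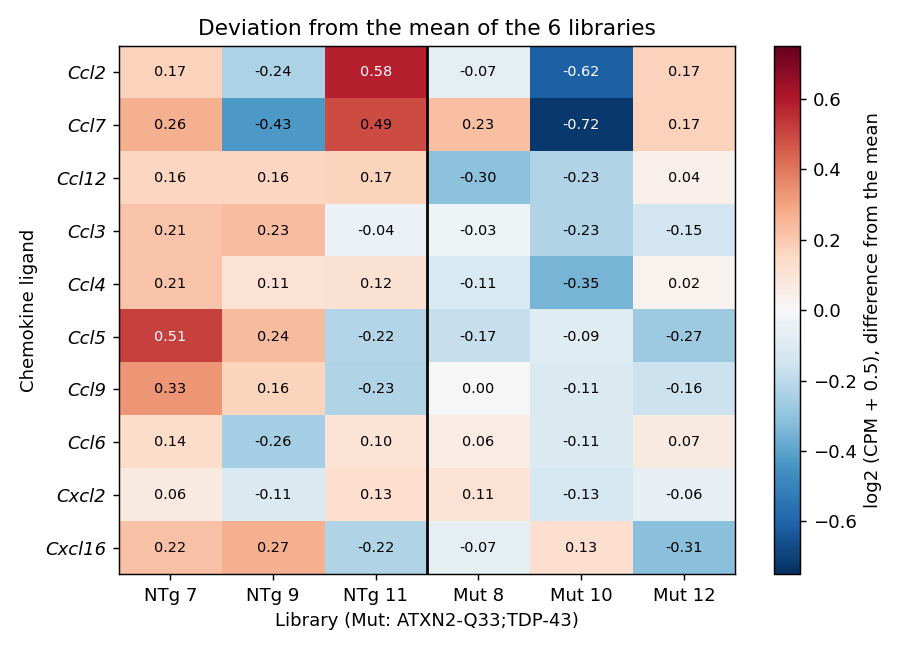
Difference of each ligand's log2 (CPM + 0.5) from its mean of the 6 libraries, with NTg replicates to the left of the line and ATXN2-Q33;TDP-43 replicates to the right. Ccl2 and Ccl7 are low in NTg 9 and mutant 10, whereas Ccl5, Ccl9 and Cxcl16 are low in NTg 11 and mutant 12.

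Of the 45 pairs of members, 32 had a positive correlation over the 6 libraries, and none passed adjustment over the 45 pairs (smallest adjusted exact permutation p = 0.125). The neighbours Ccl2 and Ccl7 had Pearson's r = 0.93 (exact permutation p = 0.00556, adjusted p = 0.125) and Spearman's rho = 0.83 (exact permutation p = 0.0583, adjusted p = 0.4375). Their r was 0.80 without the 2 libraries farthest from the median of Ccl2. The neighbours Ccl3 and Ccl4 had r = 0.76 (exact permutation p = 0.0764, adjusted p = 0.3125) and rho = 0.60 (exact permutation p = 0.242, adjusted p = 0.604), with r = 0.69 without the 2 farthest libraries. Ccl6 and Ccl9, also neighbours, had r = -0.12 (exact permutation p = 0.829, adjusted p = 0.951) and rho = -0.09 (exact permutation p = 0.919, adjusted p = 0.962). Without the 2 farthest libraries that r was 0.60. Ccl5 and Ccl9 had the highest r of all pairs, 0.95 (exact permutation p = 0.00972, adjusted p = 0.146), with rho = 0.89 (exact permutation p = 0.0333, adjusted p = 0.4375). It was 0.45 without the 2 farthest libraries, but leaving them out narrows the range and leaves few points. The smallest exact p for r was that of Ccl7 with Cxcl2, which lie on different chromosomes. Their r was 0.88 (exact permutation p = 0.00278, adjusted p = 0.125) and their rho 0.94 (exact permutation p = 0.0167, adjusted p = 0.375). Without the 2 farthest libraries their r was 0.69. All pairs share depth, normalization and cell content of the same libraries. With each group's mean removed r was 0.94 for Ccl2 with Ccl7, 0.37 for Ccl3 with Ccl4, -0.11 for Ccl6 with Ccl9 and 0.96 for Ccl5 with Ccl9. The groups of combined and other alignments hold too few libraries for values of their own.

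The other chemokine ligands together took far fewer counts, with summed levels of 63.6 to 118.4 CPM over the 6 libraries against 1690 to 2232 CPM for the 10 members. Of 28 genes, 22 had a count and 10 were tested. In the test across all genes 0 passed in either direction, 3 were positive and 7 negative, and their median log2 fold change was -0.15. The 4 with the smallest p are given as values. Cxcl10, a ligand of Cxcr3 induced by interferon, was at 27.9, 23.5 and 29.0 CPM in the NTg libraries as against 15.9, 18.05 and 23.5 CPM in the double mutants. The log2 fold change of Cxcl10 was -0.48 (SE 0.16). The top mutant value just exceeded the lowest NTg value. Ccl22, which attracts regulatory T cells through Ccr4, measured 8.46, 9.82 and 5.86 CPM against 6.01, 3.66 and 3.95 CPM. That is a difference of -0.83 on the log2 scale (SE 0.29), with mutant replicate 8 above NTg replicate 11. Ccl25 had -0.35 (SE 0.26) and the neutrophil attractant Cxcl1 -0.28 (SE 0.31). Ccl1, Ccl21a, Cxcl5, Cxcl15, Cxcl17 and Ppbp had no count in any library, where 3 counts would correspond to 0.131 to 0.239 CPM of the library total. Ccl21a has near-identical copies, so its 0 is uncertain.

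Among 24 chemokine receptors, 21 had a count and 12 were tested, of which 0 passed, 6 were positive and 6 negative, with a median of 0.0026. Cxcr4, the receptor of Cxcl12, measured 12.9 ± 1.63 CPM in the NTg libraries and 18.7 ± 4.61 CPM in the double mutants (SD, n = 3 each). Its difference was 0.52 on the log2 scale (SE 0.21). The groups overlapped: mutant replicates 8 and 10 had 21.4 and 21.2 CPM, and replicate 12 had 13.3 CPM, within the NTg range of 11.2 to 14.4 CPM. Ccr7, a homing receptor, had -0.79 (SE 0.38) at 2.60 ± 0.554 and 1.52 ± 0.384 CPM. Ccrl2, a receptor of this list that does not signal, had -0.11 (SE 0.09) and the monocyte receptor Ccr2 0.48 (SE 0.42). Ccr4, Cxcr1 and Ackr2 had no count in any library.

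Genes that act upstream of the members gave no call. Of 16 genes of NF-kappaB subunits and inhibitors, all 16 were tested and 0 passed, 2 were positive and 14 negative, and their median was -0.08. The subunits Rela, Relb and Rel had -0.10 (SE 0.10), -0.10 (SE 0.11) and -0.13 (SE 0.15), and the inhibitor gene Nfkbib had -0.09 (SE 0.11). Of 13 cytokines 0 passed, 2 were positive and 11 negative, with a median of -0.13. Tnf, an inducer of many chemokines, was at 622.9, 570.0 and 631.2 CPM in the NTg libraries as against 521.6, 442.1 and 576.6 CPM in the double mutants. Only mutant replicate 12 reached the NTg range, and the log2 fold change of Tnf was -0.24 (SE 0.11). Lif had -0.56 (SE 0.26), Il18 -0.38 (SE 0.25) and Csf1 -0.15 (SE 0.11).

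Of 9 genes of chemokine mRNA decay and ligand processing 0 passed, with 5 positive, 4 negative and a median of 0.02. Zfp36, which codes for tristetraprolin, was at 1220, 1345 and 1355 CPM in the NTg libraries as against 1499, 1425 and 1520 CPM in the double mutants. Every mutant value of Zfp36 exceeded every NTg value, as for 531 tested genes (3.27%), and its log2 fold change was 0.18 (SE 0.09). Its relative Zfp36l1 also showed no overlap, at 0.18 (SE 0.10), and Zfp36l2 had 0.16 (SE 0.13). Adam17, a sheddase, had -0.14 (SE 0.08) and measured lower in every mutant library. None of these differences passed the test.

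Immediate early genes, which are induced by handling and by activation, were summarized because cell isolation itself can induce Ccl3, Ccl4 and Cxcl2. All 23 were tested and 0 passed, 14 were positive and 9 negative, with a median of 0.05, and their summed levels were 18721 to 24484 CPM in the NTg libraries and 20501 to 27236 CPM in the mutants. Fosb had 0.27 (SE 0.12), Fos 0.26 (SE 0.18), Dusp1 0.16 (SE 0.10) and Myc -0.25 (SE 0.13). With neighbouring sample codes as a block 3 of them, Fos, Fosb and Jun, were called. The median log2 fold change was -0.24 for the members and 0.05 for this list, beside 0.01 for all tested genes. The part of isolation in the members' levels was not tested.

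Markers of other cells that can make these ligands were summed in each library, and the neutrophil list varied most between libraries of the same genotype. The 12 neutrophil markers, all present in all 6 libraries, summed to 170.5 to 654.6 CPM in the NTg libraries and to 1756, 1084 and 58.2 CPM in mutant replicates 8, 10 and 12. The 9 monocyte markers, all present in all 6 libraries, summed to 114.9 to 129.5 CPM in the NTg libraries. In mutant replicates 8, 10 and 12 they summed to 259.0, 248.4 and 63.4 CPM. All 9 were positive, with a median log2 fold change of 1.05, and so were all 12 neutrophil markers, with a median of 1.24. None of them passed the test, and mutant replicate 12 had the lowest sum of both lists. The 10 border macrophage markers, 9 of them present in all 6 libraries, summed to 420.7 to 510.2 CPM in the NTg libraries and 424.2 to 517.1 CPM in the mutants. Cxcl2, which neutrophils also make, stood at 78.4, 66.4 and 69.6 CPM in the mutant libraries in that order, and Ccl6 at 101.5, 90.6 and 102.2 CPM. How much of either ligand came from neutrophils was not tested. The 6 ependymal markers, all present in all 6 libraries, summed to 10.6 to 21.1 CPM in the NTg libraries and 18.03 to 63.8 CPM in the mutants. Of these 4 were tested, all positive, 3 of them at an unadjusted edgeR p under 0.05, with a median log2 fold change of 1.38. The fit with neighbouring sample codes as a block called Foxj1, Ccdc153 and Rarres2, 3 of the 4 tested, where it called 71 genes (0.437%) in total. None of the markers in these 4 lists was at 0 in all libraries, and their part in the members' values was not tested.

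**Figure D5:**
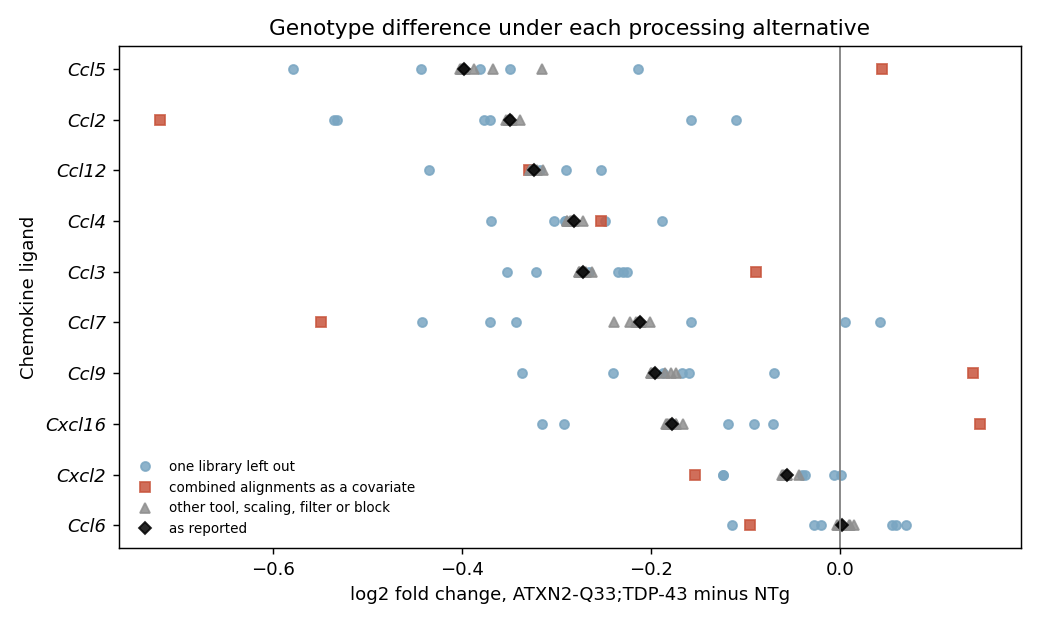
Log2 fold change of each ligand as reported (diamonds), with another tool, scaling, filter or block (triangles), with 1 library left out (circles) and with the alignment type as a covariate (squares). Ccl2, Ccl3, Ccl4 and Ccl12 stay below 0 throughout, and the squares lie farthest from the diamonds for Ccl2, Ccl5, Ccl7, Ccl9 and Cxcl16.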

How the data were processed

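The values are RNA-seq read fragments of 6 libraries of spinal cord microglia. Ribosomal RNA was removed and libraries were made with a stranded low-input kit, per the labels' protocols. The deposited raw counts per gene were made by the authors with featureCounts 1.6.1 (fragments counted by exon, strand setting 2, GENCODE vM25), per the file headers; a fragment over several genes counts for each, and fragments with several alignments are left out. Trim Galore 0.4.1, FastQC, TopHat2, mm10 and DESeq2 are named in the submitters' processing notes. The table holds 6 further columns of other samples, not used here, and some items are not reported here.

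Symbols were matched for 55141 of 55401 genes. No pair of libraries agreed within sampling noise (chi-square per degree of freedom 6.56 to 37.2), so each counts as 1 replicate; it is a separate pool of animals. Genes were filtered with filterByExpr (minimum count 10) and compared between genotypes in R 4.3.3 by edgeR 4.0.16 (TMM, robust quasi-likelihood fit, no covariates, Benjamini-Hochberg over all tested genes, threshold 0.05), checked on simulated counts. Fold changes are unshrunk, with 95% intervals from the test's degrees of freedom. CPM use TMM-scaled libraries, and TPM use the table's gene lengths. Permutation tests and correlations used log2 CPM with a pseudocount of 0.5. Alternatives were other size factors, DESeq2 1.42.0, limma 3.58.1 (voom), other filters, the combined alignments as a covariate, a looser threshold and leaving out each library; DESeq2 on the filtered genes and a block of neighbouring sample codes were added after seeing the data. The members, lists and named genes (all members; of each pathway list up to 4 genes with the smallest p) were chosen with earlier results of these data known.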

Additional observations from a re-analysis of the deposited data

How the results depend on the processing

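Without the block described below no member passed the threshold (adjusted p 0.719 to 0.99999), although signs changed as given below. Calls over all genes were 0 as reported, 6 with DESeq2 on the unfiltered genes, 7 with DESeq2 on the filtered genes (added after seeing the data), 6 in edgeR without a filter on low counts, and 0 to 2 with 1 library left out (2 without ATXN2-Q33;TDP-43 replicate 12). Ccl2, Ccl3, Ccl4 and Ccl12 stayed negative under all 16 alternatives. With the combined alignments as a term, which leaves replicate 11 to stand for NTg, the log2 fold change reversed for Ccl5 (0.044), Ccl6 (-0.10), Ccl9 (0.14) and Cxcl16 (0.15), and that of Ccl3 shrank to -0.09; the cause was not tested. Ccl6, at 0.0017 as reported, was -0.0023 with DESeq2 and -0.0036 without a filter. With 1 library left out Ccl6 ranged from -0.12 (without NTg replicate 9) to 0.070, Ccl7 from -0.44 to 0.042 (without ATXN2-Q33;TDP-43 replicate 10) and Cxcl2 from -0.12 to 0.00079 (without NTg replicate 11). At an unadjusted edgeR p under 0.05 there were 3 members as reported, where 368 of 16248 genes were. There were 0 without NTg replicate 7 (158 of 16950 genes) and 0 without ATXN2-Q33;TDP-43 replicate 10 (354 of 16653 genes). There were 4 without NTg replicate 11 (541 of 16950 genes) and 7 with the block below (1401 of 16248 genes). The block thus raised this count over all genes too. The groups share no replicate number, and the labels do not say that neighbouring codes pair. Such a block, added after seeing the data, called 71 genes and 1 member, Ccl2 (log2 fold change -0.35, adjusted p = 0.0299), with Ccl4 at 0.0781 and Ccl3 at 0.0983. The fold changes of all members moved by less than their standard errors.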

Other observations

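Some receptors of the members are given here as levels, chosen after their values were seen. Ccr1, which binds Ccl6 and Ccl9, measured 12.1 to 14.4 CPM in the NTg libraries (replicates 7, 9 and 11) and 11.9 to 20.1 CPM in the double mutants (replicates 8, 10 and 12). Ccr2, the receptor of Ccl2, Ccl7 and Ccl12, measured 3.49 to 7.44 CPM in the NTg libraries and 3.64 to 9.16 CPM in the mutants, with its top value in mutant replicate 10, where Ccl2 and Ccl7 were lowest. Cxcr2, the receptor of Cxcl2 and a gene of the neutrophil list, measured 3.30, 2.77 and 2.36 CPM in the NTg libraries and 7.49, 7.26 and 0.519 CPM in the mutants. Cxcr6, the receptor of Cxcl16, had 0 to 3 counts in each library and was not tested. Of these receptors Ccr1, Ccr2 and Cxcr2 were tested, and none passed the edgeR test.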
